A study of Homo sapiens with 30 samples.

Results

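The 8 genes METTL1, WDR4, NSUN2, TRMT1, TRMT6, TRMT61A, PUS1 and PUS7 encode enzymes, or the partner subunits of enzymes, that modify bases of tRNA and other RNA. They were chosen by name, with earlier results of these data known, so that their shares beside those of all genes are descriptions. METTL1 is also among the loci for which the paper lists ChIP primers. All 8 were among the 20367 genes of the PRO-Seq table, with 1 transcript each, and all 8 were among the 11171 genes that had a mean of at least 10 reads in both the promoter-proximal region and the gene body. The cells were G401, a malignant rhabdoid tumour line in which SNF5, a subunit of the SWI/SNF chromatin remodelling complex encoded by SMARCB1, is missing. Transduced and G418-selected cultures carried a TET-inducible construct for EGFP, the control protein, for OMOMYC (OmoMYC below), a mutant of MYC that dominantly interferes with MYC, or for SNF5, and all of them, controls included, received 1 μg/ml doxycycline for 24 h. All cultures descend from this single tumour line, and the labels do not say whether the samples of a construct came from separate transductions, so that p-values measure the spread between these samples. PRO-Seq, which maps engaged RNA polymerase at single-base resolution by nuclear run-on, was available for 3 samples per construct, ATAC-Seq, which maps open chromatin, for 3 and MYC ChIP-Seq for 2.

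Nearly every tRNA carries modified bases, some of which hold its folded body together while others tune decoding at the anticodon. METTL1 is the catalytic subunit and WDR4 the non-catalytic partner of the enzyme that places 7-methylguanosine in the variable loop of tRNAs. NSUN2 makes 5-methylcytosine in tRNAs and other RNAs, TRMT1 makes dimethylguanosine, and TRMT61A, with its non-catalytic partner TRMT6, makes 1-methyladenosine in the T loop. PUS1 and PUS7 isomerise uridine to pseudouridine, PUS7 at a short sequence motif in tRNAs and other RNAs. MYC, through its dimer with MAX, binds the E-box CACGTG and related hexamers at promoters of many genes for ribosome production and translation, and SNF5 and MYC are known to bind each other.

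By the coordinates of the PRO-Seq table (hg19), the transcripts lie at chr12:58162351-58165914 on the minus strand for METTL1, chr21:44263204-44299678 (minus) for WDR4, chr5:6599352-6633473 (minus) for NSUN2 and chr19:13215714-13227563 (minus) for TRMT1. TRMT6 lies at chr20:5918486-5931173 (minus), TRMT61A at chr14:103995509-104003410 (plus), PUS1 at chr12:132413745-132428406 (plus) and PUS7 at chr7:105096960-105162685 (minus). None overlapped another gene of the table. Their gene bodies ran from 2564 bp in METTL1 to 64726 bp in PUS7, so that the precision of the counts differed between them.

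The SMARCB1 gene body had 1 to 6 reads in the EGFP and OmoMYC samples and 2870 to 4467 in the SNF5 samples. Of the markers of other cells, PTPRC had at most 1 read, PECAM1 had 0 in every sample and EPCAM had 14 to 58. Gene body totals ran from 28388012 to 46859674 reads per sample, while promoter-proximal totals ran from 517824 to 3381190. The promoter-proximal share moved with the replicate number, at 1.46% to 1.97% in replicates 1, 8.63% to 10.3% in replicates 2 and 4.22% to 5.13% in replicates 3. PRO-Seq counts of each region were therefore compared within replicate numbers, and the correlations that tie the samples of a number together are given with the methods. The ratio of promoter-proximal to gene body density was tested both without and with this pairing.

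In control cells the mean gene body levels of the 8 genes spanned from 81.5 to 263.0. Levels are scaled gene body counts per kb, from 1 kb past the start to the end of the gene. PUS1 was highest, at 263.0 ± 33.0 (SD, n = 3) with EGFP. NSUN2 had 163.8 ± 3.88, METTL1 151.7 ± 21.8, TRMT1 132.5 ± 41.2, WDR4 126.1 ± 26.6 and TRMT61A 110.6 ± 32.6. PUS7 had 99.6 ± 7.79 and TRMT6 was lowest, at 81.5 ± 1.58. The lowest PUS1 sample, 237.9, lay above the highest NSUN2 sample, 167.9, and the highest TRMT6 sample, 83.0, below the lowest PUS7 sample, 94.2. The other neighbours in this order overlapped.

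MYC was listed at the starts of these genes in control cells. In EGFP replicate 2, whose list is the longest, all 8 genes had a MYC peak with its summit within 1 kb of an annotated start, against 39.6% of the 11171 genes, counted at the starts of the PRO-Seq table. In EGFP replicate 1, 4 of 8 had one (METTL1, WDR4, NSUN2 and PUS7), against 7.43%. In SNF5 replicate 1, METTL1 and NSUN2 had one, 2 of 8, against 1.07% of all genes, and in SNF5 replicate 2 none of the 8 had, against 0.143%. The lists held 940 and 5396 peaks with EGFP and 137 and 27 with SNF5, so that the counts at these genes move with list length, whose part in them was not tested. The deposited lists of both OmoMYC samples hold a placeholder line and no peak, and no value was taken from them. A list gives only peaks past its q-value threshold, so that a gene without a peak cannot be given a level, and 2 samples against 2 cannot go under p = 0.33 in an exact permutation test.

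The METTL1 peak had the highest fold enrichment of the 8 genes in each list that held it, 7.28 and 10.3 with EGFP and 6.25 with SNF5. Its summit lay 44 to 107 bp downstream of the start, at chr12:58165870 in hg19 in EGFP replicate 2, over the untranslated or coding part of an exon. NSUN2 had 6.45 and 9.20 with EGFP and 4.98 with SNF5, with summits 217 to 342 bp downstream, in an untranslated exon or an intron. For both genes the SNF5 value lay below both EGFP values. WDR4, the partner of METTL1, had 6.91 and 6.99 with EGFP, 46 and 40 bp downstream in an untranslated exon. PUS7 had 5.83 and 7.35, with summits 99 and 12 bp upstream of the start that the PRO-Seq table uses, and in both EGFP samples a second peak in an intron, of 4.99 and 5.38, 646 and 619 bp downstream. In EGFP replicate 2 alone, PUS1 had 9.41, TRMT6 7.57, TRMT1 6.48 and TRMT61A 6, all with summits within 91 bp of the start. Of these starts, 3 lie near that of a gene on the other strand. The start of NSUN2 lies 27 bp from that of SRD5A1, the start of TRMT6 lies 125 bp from that of MCM8, and the start of METTL1 lies 469 bp from that of METTL21B, so a peak there cannot be assigned to either gene of the pair.

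The RefSeq promoter table (GRCh38.p14, 250 bases before to 50 after the start) held 5 of the 8 genes, PUS7, TRMT61A, TRMT6, WDR4 and TRMT1, each matching the GRCh37 sequence once without a mismatch. The hexamer CACGTG, which reads the same on both strands, occurs in 7.43% of the 27305 promoters in the table. PUS7, TRMT61A and TRMT6 each had 1 copy. The related CATGTG, searched on both strands, occurs in 11.2% of promoters, and WDR4, TRMT1 and TRMT61A had it. CACGCG, in 11.4% of promoters, occurred in none of the 5. These shares cover all promoters, whether or not the gene was tested here or had a MYC peak, as all 5 were and had. The share among promoters with a MYC peak was not counted. The windows below are shown because each motif in capitals lay inside the MYC peak of EGFP replicate 2, with CACGTG in capitals in the first 3 and CATGTG or its complement, which overlap in WDR4, in the last 2.
PUS7, chr7:105522226-105522255, minus strand: gtcgctgcgccgCACGTGtgcgagcccggc
TRMT61A, chr14:103529216-103529245, plus strand: gcgtcgcggaggCACGTGtggagccccggc
TRMT6, chr20:5950512-5950541, minus strand: agcggcgtgcaaCACGTGggggcggtgccg
WDR4, chr21:42879509-42879538, minus strand: ctctgggctggCACATGTGtatggcggtga
TRMT1, chr19:13116737-13116766, minus strand: gccaaccactatCATGTGattcgcccaccc

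Counted from 1 at the first transcribed base in RefSeq, the PUS7 hexamer began at position 29, 10 bp from the MYC summit of EGFP replicate 2 and 97 bp from that of replicate 1. In TRMT61A it began at position 33, 9 bp from the summit, and in TRMT6 at position 5, 62 bp from the summit. The overlapping pair of hexamers in WDR4 lay 4 and 6 bp from the summit in EGFP replicate 2 and 2 and 0 bp in replicate 1. The TRMT1 hexamer was 92 bp away. TRMT61A had a further CATGTG, on the other strand, that lay outside the peak. These are matches of letters in a window, and what binds there was not measured.

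The 250 bases before the RefSeq start of PUS7 are given because the MYC summit of EGFP replicate 1 fell in them and the pausing index of this gene is taken up below. They hold none of the 3 motifs and have no capitals.
PUS7, chr7:105522272-105522521, minus strand: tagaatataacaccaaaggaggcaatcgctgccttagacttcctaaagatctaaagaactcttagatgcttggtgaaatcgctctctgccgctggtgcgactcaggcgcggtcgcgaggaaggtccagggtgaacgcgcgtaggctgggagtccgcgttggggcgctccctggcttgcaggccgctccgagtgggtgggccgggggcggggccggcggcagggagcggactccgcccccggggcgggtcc

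Scaled gene body counts show whether engaged polymerase on these genes, relative to the other genes of a sample, changed when SNF5 was returned. With SNF5, all 8 genes had a negative log2 fold change against EGFP, between −0.44 and −0.17, with a median of −0.27 against −0.08 over all genes. METTL1, WDR4, TRMT61A, PUS1 and PUS7 fell, 5 of 8, at an adjusted p under 0.05 in edgeR's quasi-likelihood test, which was adjusted over all genes and paired samples by replicate number. None rose. Of all genes, 22.1% fell and 12.4% rose. In bulk cultures, a lower level in every cell and a loss in some of the cells cannot be told apart. In the pairs of replicate numbers, 7 of the 8 were lower than EGFP in all 3 pairs, against 39% of all genes, and none was higher in all 3, against 20.8%.

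WDR4 had the largest decrease. Its scaled gene body counts per kb were 140.6, 95.4 and 142.2 in EGFP replicates 1, 2 and 3 and 107.2, 72.0 and 98.2 with SNF5. The SNF5 sample was lower in each pair, at 0.763, 0.754 and 0.691 of its EGFP sample, although the groups overlapped. The log2 fold change was −0.44 (SE 0.080, edgeR adjusted p = 0.00449). METTL1, its catalytic partner, had 138.5, 176.8 and 139.8 with EGFP and 119.1, 137.6 and 113.2 with SNF5. These groups did not overlap, and the log2 fold change was −0.29 (SE 0.099, edgeR adjusted p = 0.0473). METTL1 has the shortest gene body of the 8, 2564 bp, and 327 to 442 reads in the EGFP samples.

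PUS7 had 108.5, 94.2 and 96.0 with EGFP and 90.0, 75.2 and 78.9 with SNF5. Every SNF5 sample lay below every EGFP sample, with a log2 fold change of −0.29 (SE 0.053, edgeR adjusted p = 0.00439). PUS1, the other pseudouridine synthase, had 300.4, 237.9 and 250.6 with EGFP against 249.1, 209.0 and 226.0 with SNF5. The groups overlapped while each pair was lower, and the log2 fold change was −0.20 (SE 0.064, edgeR adjusted p = 0.0373).

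TRMT61A, the catalytic subunit of the 1-methyladenosine enzyme, had 130.7, 73.0 and 128.0 with EGFP and 98.7, 53.8 and 113.3 with SNF5. Replicate 2 was the lowest sample for both constructs, and the SNF5 sample was lower in each pair, with a log2 fold change of −0.34 (SE 0.092, edgeR adjusted p = 0.0219). Its partner TRMT6 had 83.0, 79.8 and 81.6 with EGFP and 84.7, 72.5 and 61.4 with SNF5. The spread between SNF5 samples was wide for this gene, the pair of replicate 1 was not lower, and the log2 fold change of −0.17 (SE 0.1, edgeR adjusted p = 0.216) did not pass. NSUN2 and TRMT1 did not pass either. NSUN2 had 167.9, 160.2 and 163.2 with EGFP and 156.1, 129.6 and 150.9 with SNF5, with a log2 fold change of −0.18 (SE 0.083, edgeR adjusted p = 0.126). TRMT1 had 148.9, 85.6 and 162.9 with EGFP and 128.2, 76.5 and 127.0 with SNF5, with a log2 fold change of −0.25 (SE 0.096, edgeR adjusted p = 0.0753). Both were lower in all 3 pairs.

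The count of 5 depended on the fit, whereas the sign did not. With DESeq2, WDR4, TRMT61A and PUS7 passed, and over all genes 1771 then rose and 1618 fell, against 1384 and 2468 with edgeR. Without the block for the replicate number none of the 8 passed, where 3 of all 11171 genes fell and 89 rose, and with only the EGFP and SNF5 samples in the fit WDR4 and PUS7 did. Without replicates 1 or without replicates 2 only WDR4 passed, where 351 of 11386 and 258 of 10957 genes fell. Without replicates 3 all but TRMT6 passed, where 4598 of 11063 genes fell, so that the count among the 8 moved with that of the whole table.

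**Figure D1:**
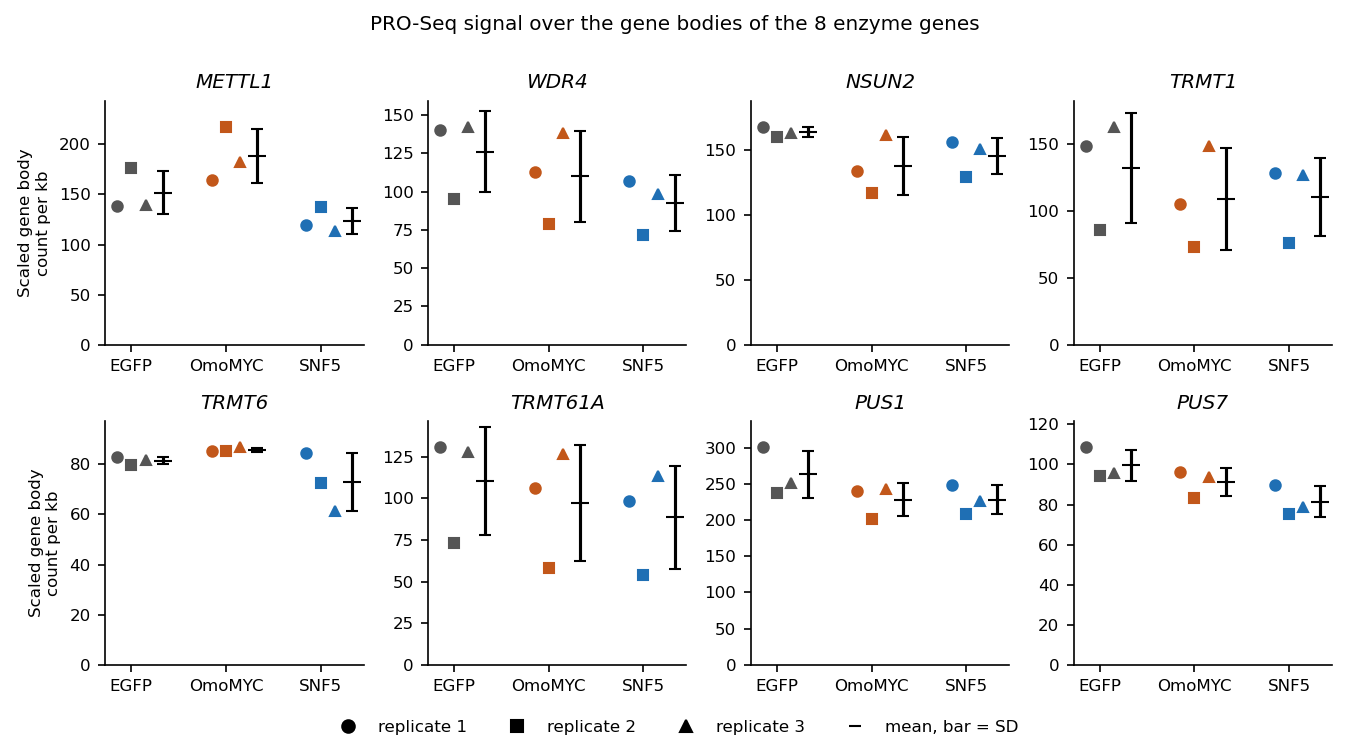
Scaled gene body counts per kb (vertical axes, from 0) of the 8 genes in the 9 PRO-Seq samples, by construct, with a marker shape per replicate number and the mean with its SD beside each group of 3. WDR4 sits at 95.4 to 142.2 with EGFP and 72.0 to 107.2 with SNF5, and METTL1 with OmoMYC sits at 164.7 to 217.2, above its SNF5 samples.

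OmoMYC, which interferes with MYC without returning SNF5, was tested against the same EGFP samples, and the log2 fold changes of the 8 genes ran from −0.28 to 0.31. In edgeR 6 of the 8 genes had an unadjusted p under 0.05, as did 3686 of all 11171 genes. None of the 8 passed the adjusted p of 0.05 in edgeR or in DESeq2. Of all genes, 5.16% rose and 7.27% fell, and with DESeq2 980 rose and 864 fell against 576 and 812 with edgeR. The median log2 fold change of the 8 was −0.20, against −0.03 over all genes. In pairs of replicate numbers, 6 of 8 were lower than EGFP in all 3 pairs, against 33.1% of all genes, and METTL1 and TRMT6, 2 of 8, were higher in all 3, against 24.2%.

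METTL1 had 164.7, 217.2 and 182.6 scaled gene body counts per kb with OmoMYC. Each sample lay above the EGFP sample of its number, at 1.19, 1.23 and 1.31 of it, and the log2 fold change was 0.31 (SE 0.098, edgeR adjusted p = 0.066). WDR4 had 113.1, 78.6 and 138.3, which is 0.805, 0.824 and 0.973 of its EGFP samples, with a log2 fold change of −0.21 (SE 0.080, edgeR adjusted p = 0.112). The subunits of this enzyme thus had estimates of opposite sign. TRMT6, the non-catalytic partner of TRMT61A, had 85.2, 85.2 and 86.7, slightly above all its EGFP samples, with a log2 fold change of 0.08 (SE 0.1, edgeR adjusted p = 0.639).

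For the other genes all 3 pairs were lower but the test was not passed. NSUN2 had a log2 fold change of −0.26 (edgeR adjusted p = 0.0676), from 133.9, 117.2 and 161.6 scaled counts per kb. TRMT1 had −0.28 (edgeR adjusted p = 0.0826), from 105.4, 72.8 and 148.8. These groups overlapped EGFP for TRMT1, and for NSUN2 the OmoMYC sample of replicate 3 lay within the EGFP range. The pseudouridine synthase PUS1 had −0.20 (edgeR adjusted p = 0.0689), from 240.1, 201.8 and 243.3. PUS7 had −0.13 (edgeR adjusted p = 0.133), from 96.4, 83.5 and 93.8. TRMT61A had −0.20 (edgeR adjusted p = 0.159), from 106.3, 58.5 and 126.9. All of these groups overlapped EGFP as well. In each of these 5 and in WDR4, the pair of replicate 3 was nearest to 1, between 0.914 and 0.991 of EGFP, against 0.708 to 0.889 in the pairs of replicates 1 and 2. Without replicates 3, 7 of the 8 passed, METTL1 higher (0.27, edgeR adjusted p = 0.0442) and the other 6 lower, with TRMT6 the exception. In that fit 2165 of 11063 genes rose and 3600 fell.

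The direct comparison of SNF5 with OmoMYC, which uses no EGFP sample in its contrast, tests where the constructs differed from each other. METTL1 was lower with SNF5, with a log2 fold change of −0.61 (SE 0.099, edgeR adjusted p = 0.00478), which is 0.657-fold. The highest SNF5 sample, 137.6 per kb, lay below the lowest OmoMYC sample, 164.7. None of the other 7 passed, and 7.58% of all genes were higher and 8.48% lower with SNF5 in this comparison. With DESeq2 1147 genes were higher and 846 lower, against 847 and 947 with edgeR, and METTL1 passed in both. PUS7 had −0.17 (edgeR adjusted p = 0.0614), WDR4 −0.24 (0.0783) and TRMT6 −0.24 (0.13), and the other 4 lay between −0.13 and 0.09. METTL1 lost its call without the block, at an edgeR adjusted p of 0.301, without replicates 1 (0.0638) and without replicates 2 (0.097), with estimates between −0.68 and −0.57 in all leave-outs. Without replicates 1 and without replicates 2, 74 of 11386 and 85 of 10957 genes were lower.

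**Figure D2:**
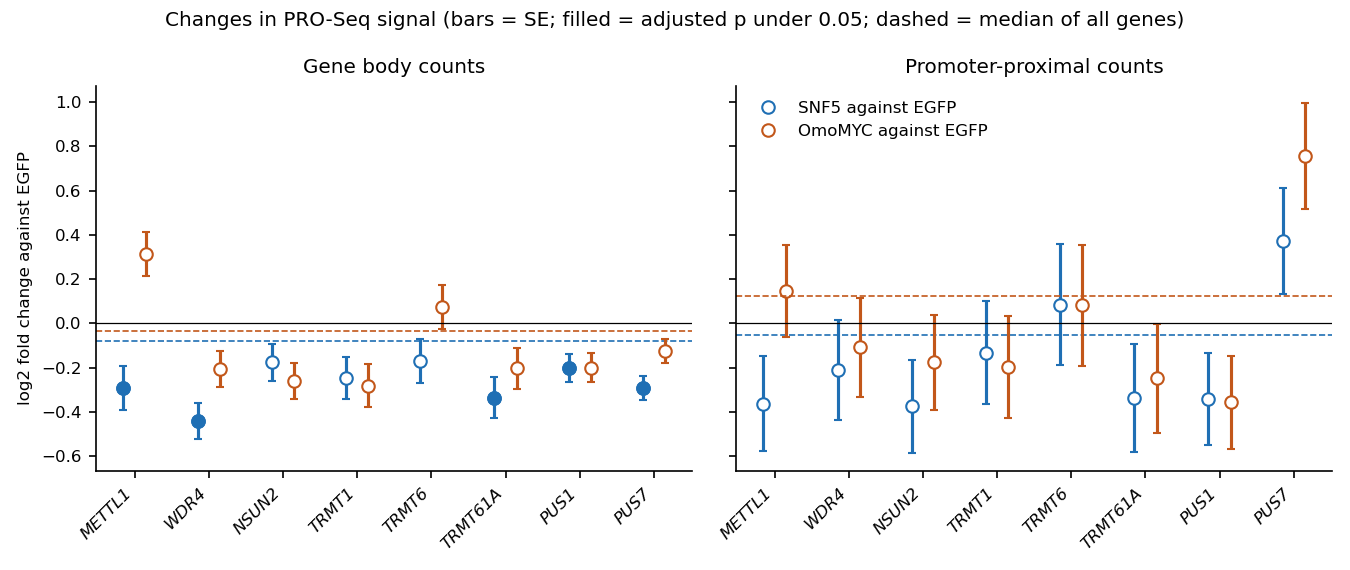
Log2 fold changes against EGFP (vertical axis) of gene body counts on the left and promoter-proximal counts on the right for the 8 genes, with SNF5 in blue and OmoMYC in orange, bars for the SE, filled points for an adjusted p under 0.05 and dashed lines for the medians of all genes. Filled points appear only for 5 genes with SNF5 in the gene body, and METTL1 has 0.31 with OmoMYC against −0.29 with SNF5.

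Promoter-proximal counts, the reads of the densest 50 bp window near the start, carry fewer reads and a larger error. No gene of the 8 passed in any comparison, in edgeR or DESeq2. With SNF5, 2.6% of all genes were higher and 1.71% lower, and the 8 genes ran from −0.38 to 0.37 on the log2 scale, with 0 at an unadjusted p under 0.05. With OmoMYC, 1.66% were higher and 0.17% lower, and the 8 ran from −0.36 to 0.76 with 1 at an unadjusted p under 0.05. Between the constructs 0.439% were higher and 0.358% lower with SNF5, with 1 of the 8, METTL1, at an unadjusted p under 0.05 (log2 fold change −0.51, edgeR adjusted p = 0.272). Of all 11171 genes, 2262 had an unadjusted p under 0.05 with SNF5, 1732 with OmoMYC and 1572 between the constructs. Scaling the promoter-proximal counts by their own totals moved the median of all genes with OmoMYC from 0.12 to −0.03, and the split of calls from 185 higher and 19 lower to 123 and 112. With SNF5 it moved the split from 291 and 191 to 446 and 589, and between the constructs from 49 and 40 to 86 and 30.

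In this region PUS7 was the only gene of the set with an unadjusted edgeR p under 0.05 with OmoMYC. Of all 11171 genes, 1732 had such a p, so that 1 gene of this kind does not tell the set from the table. PUS7 had 20, 104 and 57 promoter-proximal reads in EGFP replicates 1, 2 and 3, 26, 158 and 125 with OmoMYC and 23, 163 and 83 with SNF5. Scaled for depth, the OmoMYC samples were 1.30, 1.53 and 2.18 times their EGFP samples, with a log2 fold change of 0.76 (SE 0.239, edgeR adjusted p = 0.0973). The SNF5 samples were 0.982, 1.30 and 1.51 times, with a log2 fold change of 0.37 (SE 0.241, edgeR adjusted p = 0.393). Scaled by promoter-proximal totals, the value with OmoMYC was 0.62, beside the median of −0.03 over all genes.

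The pausing index, promoter-proximal density over gene body density, joins both regions. It differed far more between replicate numbers than between constructs. For PUS7 it was 4, 27.8 and 9.64 with EGFP, 5.85, 47.9 and 21.5 with OmoMYC and 4.75, 45.2 and 17.7 with SNF5. Every OmoMYC and SNF5 sample was above the EGFP sample of its number, by 1.46, 1.73 and 2.23 times with OmoMYC and 1.19, 1.63 and 1.84 times with SNF5, while the groups overlapped. Without a block for the replicate number, the log2 change was 0.86 with OmoMYC (SE 1.166, edgeR adjusted p = 1). In that fit no gene of the 11171 passed in any of the 3 comparisons, 0% in either direction, and none of the 8 had an unadjusted p under 0.05 in edgeR, nor an adjusted p under 0.05 in DESeq2. With the samples paired by replicate number, the PUS7 index rose with OmoMYC by 0.88 (SE 0.249, edgeR adjusted p = 0.0451). It was the only call among the 8, where 2.18% of all genes were higher and 0.0806% lower. In that paired fit 1 of the 8 had an unadjusted edgeR p under 0.05, as did 1733 of all 11171 genes. With SNF5 the paired change of PUS7 was 0.67 (SE 0.251, edgeR adjusted p = 0.12). There, 2.02% of all genes were higher and 1.64% lower and none of the 8 passed. Between the constructs none of the 8 passed, and 0.125% of all genes were higher and 1.1% lower with SNF5. With promoter-proximal counts scaled by their own totals in the paired fit, the split over all genes with OmoMYC went from 243 higher and 9 lower to 123 and 61 and the median from 0.14 to −0.01, and between the constructs from 14 and 123 to 63 and 91.

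The PUS7 call was close to the threshold. It was lost in the paired fit without replicates 1, 2 or 3, at edgeR adjusted p of 0.0589, 1 and 0.0901 with log2 changes of 0.96, 0.92 and 0.72. It was also lost with DESeq2 (0.87, adjusted p = 0.0847) and with promoter-proximal counts scaled by their own totals (0.74, edgeR adjusted p = 0.08). The other 7 genes had paired log2 changes between −0.17 and 0.08 with OmoMYC and between −0.20 and 0.31 with SNF5. The medians over all 8, 0.03 and 0.05, lay beside 0.14 and 0.01 over all genes. TRMT1, which makes dimethylguanosine, had the widest range of the index, from 5.54 to 165.5 among its EGFP samples, and TRMT6 rested on the fewest promoter-proximal reads, 7 to 71 per sample.

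**Figure D3:**
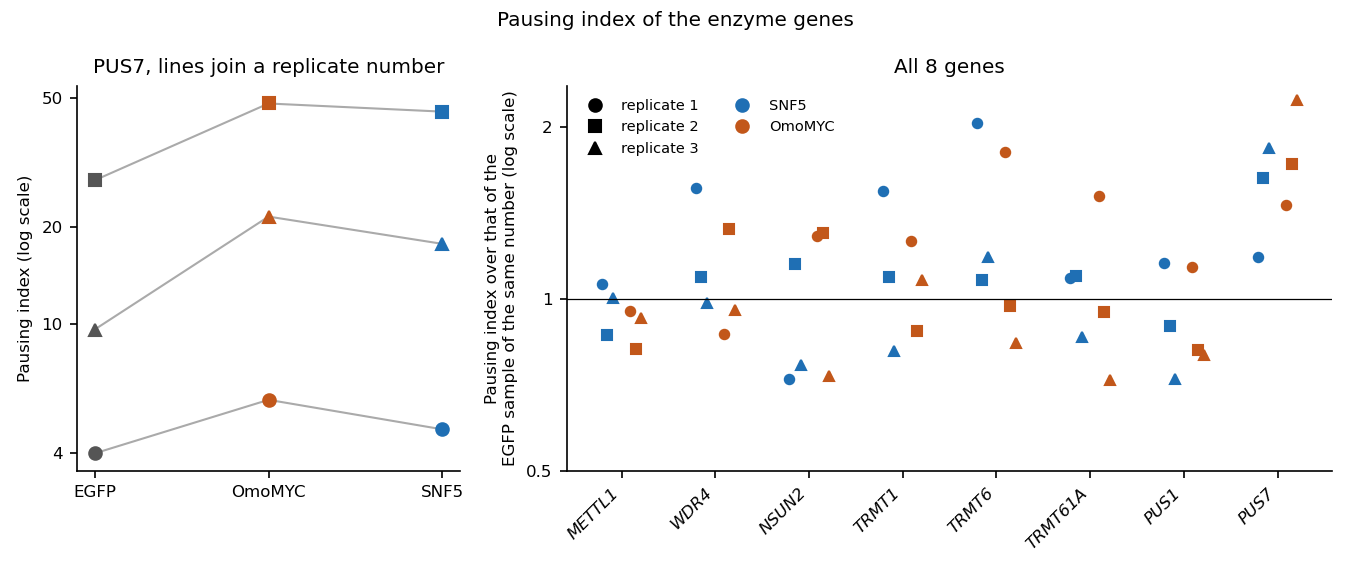
Pausing index of PUS7 in the 9 samples on a log axis, with grey lines joining samples of 1 replicate number (left), and for all 8 genes the index of each SNF5 and OmoMYC sample over that of the EGFP sample of the same number, on a log axis (right). All 6 ratios of PUS7 lie above 1, from 1.19 to 2.23, while METTL1 stays between 0.816 and 1.06.

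Chromatin at the starts of most of these genes was open in control cells. An ATAC-Seq peak summit lay within 1 kb of an annotated start in all 3 EGFP samples for 6 of 8 (METTL1, WDR4, NSUN2, TRMT6, PUS1 and PUS7), against 54.7% of the 10655 genes whose symbols matched the annotation. With OmoMYC this held for 5 of 8, without PUS1, against 49.6%, and with SNF5 6 of 8 against 75.4%. TRMT6 had the highest enrichment, at 8.47, 11.1 and 10.4 with EGFP, 8.07, 12.7 and 9.20 with OmoMYC and 11.3, 13.1 and 10.5 with SNF5. PUS7 had 5.28, 7.83 and 6.14 with EGFP, 4.76, 7.90 and 5.94 with OmoMYC and 7.82, 7.33 and 8.97 with SNF5. Each of these groups overlapped its EGFP group.

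METTL1 had 5.88, 6.07 and 5.54 with EGFP and 6.93, 6.55 and 6.86 with SNF5. All SNF5 samples were higher, by 0.95 on average, and an exact two-sided permutation test gave p = 0.1, the smallest that 3 samples against 3 allow. WDR4 had 7.13, 4.81 and 4.82 with EGFP and 8.05, 8.39 and 7.32 with SNF5, also without overlap (exact permutation p = 0.1), but its strongest summit lay at −86 bp from the start in EGFP replicate 1 and at 506 and 533 bp in replicates 2 and 3, and with SNF5 at 35, 20 and 515 bp. Its SNF5 samples also lay above the OmoMYC samples, 6.21, 7.16 and 5.89 (exact permutation p = 0.1). NSUN2 had 5.98, 6.81 and 5.72 with EGFP and 5.99, 6.86 and 6.05 with SNF5, and did not differ beyond its spread (exact permutation p = 0.5). Over the 16 such tests in all 3 comparisons the lowest adjusted p was 0.533. The share of all genes whose groups separate in this way was not counted, so METTL1 and WDR4 cannot be set against it. PUS1 had a peak in OmoMYC replicate 2 only, of 7.39, and in every sample of the other constructs.

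TRMT1 and TRMT61A had no listed ATAC-Seq peak in any EGFP or OmoMYC sample. With SNF5, TRMT1 had a peak of 4.05 and 5.22 in replicates 1 and 2, with summits at −1449 and −1413 bp from the annotated start nearest to that of the PRO-Seq table and within 1 kb of a further annotated start. TRMT61A had a peak of 3.67 in SNF5 replicate 1, with its summit at −10 bp. The lists that held these peaks were longer, with 33596, 26604 and 22722 peaks in the SNF5 samples against 9208 to 17817 with EGFP and 7260 to 23684 with OmoMYC, and the part of list length in these peaks was not tested.

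**Figure D4:**
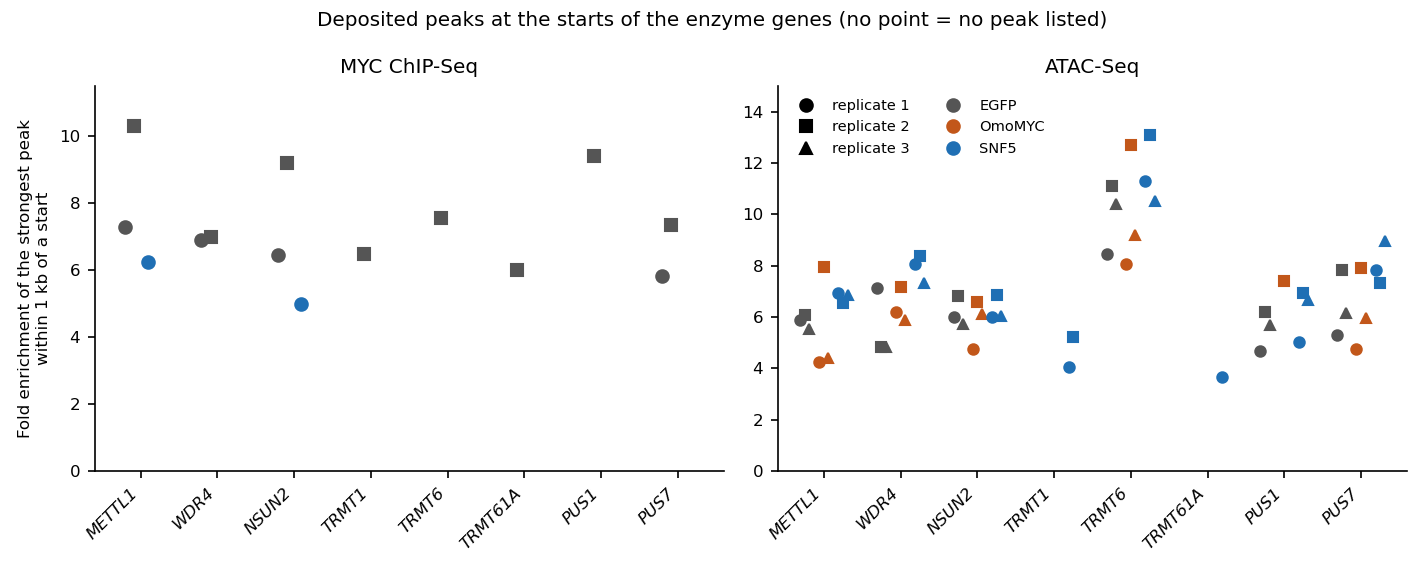
Fold enrichment over local background (vertical axes, from 0) of the strongest peak within 1 kb of a start of each gene, for MYC ChIP-Seq (left; EGFP and SNF5) and ATAC-Seq (right; all constructs), with a marker shape per replicate number. MYC points for all 8 genes come from EGFP replicate 2, and those with SNF5 are METTL1 at 6.25 and NSUN2 at 4.98.

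The 8 genes were set beside 108 other genes for tRNA, rRNA and mRNA modification, of which 87 were tested. With SNF5, 29 of the 87 fell in the gene body and 1 rose, with a median log2 fold change of −0.17, beside 22.1% lower, 12.4% higher and a median of −0.08 over all genes. The pseudouridine synthases had the lowest median of the groups, −0.28 over 10 tested genes, of which 4 fell. Of 28 tested enzymes of wobble uridine and the anticodon loop 11 fell, as did 6 of 12 NSUN and rRNA methyltransferases, 4 of 11 m6A writers and erasers, 3 of 21 tRNA methyltransferases and partners and 1 of 5 cap enzymes, and the shares of the last 2 groups lay below that of all genes. QTRT1, the catalytic subunit of the enzyme that inserts queuosine, had −0.53 (SE 0.110, edgeR adjusted p = 0.00785), and MOCS3, a sulfur carrier activating enzyme of wobble uridine thiolation, had −0.52 (SE 0.1, edgeR adjusted p = 0.00563). The gene that rose was NSUN3, a methyltransferase for a mitochondrial tRNA, with 0.24 (SE 0.062, edgeR adjusted p = 0.0167).

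With OmoMYC, 13 of the 87 fell and 2 rose, with a median of −0.11, beside 7.27% lower, 5.16% higher and a median of −0.03 over all genes. MOCS3 had −0.58 (SE 0.101, edgeR adjusted p = 0.0195) and TARBP1, a tRNA ribose methyltransferase, −0.43 (SE 0.079, edgeR adjusted p = 0.0209), while NSUN3 had 0.40 (SE 0.062, edgeR adjusted p = 0.0157) and ALKBH8, a wobble uridine methyltransferase, 0.27 (SE 0.070, edgeR adjusted p = 0.0419). Between the constructs, 3 of the 87 were lower with SNF5 and none was higher, QTRT1 (−0.46, edgeR adjusted p = 0.0235) and the tRNA adenosine deaminase ADAT1 (−0.34, edgeR adjusted p = 0.0292) the lowest among them, which is a smaller share than the 8.48% lower and 7.58% higher of all genes. METTL1 at −0.61 lay below every one of these 87.

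Across the 9 samples, gene body levels were correlated with the mean of the 8 genes, after removal of each replicate number's mean. The highest correlations were those of NUDCD3 (Pearson r = 0.997), EEF1E1-MUTED (0.993) and H2AFY (0.991). These are descriptions over 9 samples that share the 3 constructs and the depth scaling. They were picked as the highest of all tested genes, and a correlation does not compare the size of changes. NUDCD3 had log2 fold changes of −0.17 with SNF5 and −0.07 with OmoMYC, EEF1E1-MUTED, a read-through of EEF1E1, −0.19 and −0.06, and H2AFY, a macroH2A histone, −0.29 and −0.12.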

How the data were processed

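Only the deposited tables and peak lists were analysed. Per the paper's methods, PRO-Seq reads were trimmed with cutadapt, reverse complemented, aligned to hg19 with Bowtie2 and counted by NRSA. The deposited table gives raw counts for a 50 bp promoter-proximal window, the densest within 500 bp of the start, and for the gene body from 1000 bp past the start, and a gene body signal in reads per bp, which was used only to check gene body length. Deposited MACS2 lists, made by the authors per sample in hg19 (MYC) and hg38 (ATAC-Seq), give peaks with a fold ratio over local background, −log10 p and −log10 q.

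One transcript per gene symbol was kept. Counts were tested with edgeR 4.0.16 (R 4.3.3, limma 3.58.1), with DESeq2 1.42.0 as an alternative, scaled by RLE factors of the gene body, used for both regions, and adjusted by the Benjamini-Hochberg method over 11171 genes. Tests of a region included a block term for the replicate number. For the pausing index the test was the interaction of region and construct, without and with pairing. Same-numbered samples correlated, after removal of construct means, at 0.817 to 0.922 in the gene body, 0.693 to 0.859 in the promoter-proximal region and 0.546 to 0.845 in the pausing index, and others at −0.766 to 0.282, −0.629 to −0.039 and −0.704 to 0.146, so the numbers were taken as pairs. ATAC-Seq enrichments were tested by exact permutation (scipy 1.17.1). The scripts were tested on simulated data.

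Peaks were placed at GENCODE starts in GRCh37 or, as the annotation itself lists them, GRCh38 coordinates, and background shares for MYC used the table's starts. Genes named are the 8, SMARCB1, the up to 2 called genes of the modification list with the largest rise and the 2 with the largest fall per comparison (gene body and pausing index), and the 3 most alike. Members and lists were chosen with earlier results of these data known. IgG samples were not used here. Alternatives varied scaling, test, filter, block, samples and peak distance.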

Additional observations from a re-analysis of the deposited data

Results flagged for a closer look

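METTL1 gene body counts were lower with SNF5 than with OmoMYC. Against EGFP, the unadjusted edgeR p was 0.016 with SNF5 and 0.0111 with OmoMYC, and after adjustment only the difference with SNF5 passed. The contrast of these constructs, whose estimates against the same EGFP samples had opposite signs, gave −0.61 on the log2 scale (SE 0.099, edgeR adjusted p = 0.00478), from 0.31 with OmoMYC (edgeR adjusted p = 0.066) and −0.29 with SNF5 (edgeR adjusted p = 0.0473). SNF5 samples were lower than EGFP in 3 of 3 pairs and OmoMYC samples higher in 3 of 3. The call with SNF5 against EGFP was lost with DESeq2 (adjusted p = 0.167) and without the replicate block (edgeR adjusted p = 0.506). The direct contrast passed with DESeq2 but not without the block (edgeR adjusted p = 0.301).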

How the results depend on the processing

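Over 744 values of single genes under other settings, none that had passed the test changed sign, 25 lost the call and 12 gained one. Another 68 values that passed in neither fit changed sign and lay between −0.15 and 0.29. With SNF5, all 64 gene body values under other settings were negative. The number of the 8 genes that passed in the gene body with SNF5, 5 in the reported fit, was 3 with DESeq2, 2 with the compared constructs only, 0 without the replicate block and between 1 and 7 when any single replicate number was dropped. With OmoMYC it was 0, and from 0 to 7 in the leave-outs, and between the constructs it was 1, then 0 without the replicate block and from 0 to 3 in the leave-outs. With the replicate block the pausing index call with OmoMYC, 0 in the reported fit, was 1, and 0 in each paired fit that left out a replicate, while the block changed no other call on the index. The paired fits with DESeq2, with promoter-proximal scaling and without a replicate were added after seeing the data. The number of genes with a MYC peak in every sample was 4 with EGFP, from 4 to 8 without a replicate, and 0 with SNF5, from 0 to 2. This number did not change with distance, peak overlap, q-value or annotation. In SNF5 replicate 1 alone, the 2 genes with a peak became 1, METTL1, at a −log10 q of at least 5. No ATAC-Seq count moved by over 1.5 times. No other transcript of these genes was in the table, so that alternative was not run. Without the filter on counts 16279 genes were tested. Promoter-proximal depth, lowest in replicates 1, limits the pausing index.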

Other observations

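Few genes of the modification list passed the test in the promoter-proximal region or in the paired fit of the pausing index. With SNF5, promoter-proximal counts of 3 of the 87 tested fell and none rose, beside 1.71% lower and 2.6% higher over all genes. None passed with OmoMYC in edgeR. There, 14 of the 87 had an unadjusted p under 0.05, as did 1732 of all 11171 genes. In the paired fit with SNF5, the pausing index fell for QTRTD1, the partner of QTRT1 (−0.89, edgeR adjusted p = 0.0163), and for ELP4, an Elongator subunit (−0.79, edgeR adjusted p = 0.0317), and rose for FBL, the rRNA 2′-O-methyltransferase fibrillarin (0.79, edgeR adjusted p = 0.0371). With OmoMYC it rose for FBL (0.93, edgeR adjusted p = 0.0185) and METTL8, a mitochondrial tRNA methyltransferase (1.13, edgeR adjusted p = 0.0326), 2 of the 87, beside 2.18% higher over all genes. With SNF5 those shares were 2.02% higher and 1.64% lower. None of these changes of the index passed in the fit without pairing, but none of all 11171 genes did, so that fit does not tell these genes from others.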
